A study of Homo sapiens with 6 samples.

Results

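The clustered protocadherins were read across 2 kidney cancer lines with and without knockdown of the zinc finger protein ZNF395. They were taken as every row of the count table named PCDHA, PCDHAC, PCDHB, PCDHGA, PCDHGB or PCDHGC with a number. This gave 53 of 32357 rows: 15 of the alpha cluster, 17 of the beta cluster and 21 of the gamma cluster. The beta rows include PCDHB17 and PCDHB18, which are pseudogenes. PCDHB1 and PCDHGB5 were not analysed here. In GENCODE v29 the other 51 members all lie on the plus strand of chromosome 5, in the order alpha, beta, gamma.

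Clustered protocadherins are cell surface adhesion proteins best known from the brain. Each alpha and gamma gene has its own promoter and its own large first exon, which is spliced to 3' exons shared by the whole cluster, so that members differ outside the cell and share a cytoplasmic end. The beta genes are single exons without that shared end. Individual neurons use different small sets of the alternate isoforms, which form cis dimers and bind only matching sets on other cells, and the choice of promoter depends on CTCF, cohesin and DNA methylation. The C-type isoforms (PCDHAC1, PCDHAC2, PCDHGC3, PCDHGC4 and PCDHGC5) sit at the 3' ends of their clusters and are regulated differently from the alternate isoforms. Shared exons mean that reads there cannot be given to a single alpha or gamma gene, and those counts are uncertain to that extent.

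The lines were 786-O and A-498, established human clear cell renal cell carcinoma lines, both without functional VHL, a tumour suppressor that marks HIF proteins for destruction. They had been transduced with virus made in HEK293T, a human embryonic kidney line, carrying a non-targeting control hairpin, ZNF395 hairpin 1 or ZNF395 hairpin 3, and selected with puromycin, which the controls received too. Each line and construct gave 1 library of total RNA, 6 in all, of which 2 were controls and 4 were knockdowns. No culture was repeated, so each p-value rests on the spread a model leaves between these libraries.

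The promoters of these genes share a short sequence around the core CGCT, and the stretches below are shown because the core stands before members that were called between the lines and before members that were not. Of the 53 members, 45 matched an entry in RefSeq's promoter windows (GRCh38.p14, 250 bases before to 50 after the start). PCDHA3, PCDHA13, PCDHB6, PCDHB11, PCDHB17, PCDHB18, PCDHGA12 and PCDHGC5 had no entry. Each sequence is 30 bases of the plus strand, which is the gene strand, with the core in capitals. PCDHAC2 stands apart: its window held 3 copies of the core and not the longer word of the other alpha genes, and the copy shown lies 158 bases before the start.
PCDHA4 (chr5:140806978-140807007): ttggagccacatgatgtCGCTctttaccac
PCDHA8 (chr5:140841129-140841158): ttgaagccacatgatgtCGCTgtctaccaa
PCDHA10 (chr5:140855840-140855869): ctaaagccaccggatgtCGCTgtcgtccac
PCDHAC1 (chr5:140926219-140926248): agcctagaaggtgtggtCGCTcacgttcac
PCDHAC2 (chr5:140966301-140966330): gccgtgttcctgcggtcCGCTgggatccgg
PCDHB2 (chr5:141094543-141094572): gaagagacgcggggtggCGCTgcagcctta
PCDHB13 (chr5:141213864-141213893): gtgaggacgcgtggtggCGCTgcaggataa
PCDHB15 (chr5:141245313-141245342): aagacaacgcatggtggCGCTgcaggctaa
PCDHB16 (chr5:141182309-141182338): gtgagaacgcgtggtggCGCTgcaggttaa
PCDHGB1 (chr5:141350024-141350053): agacaacctctgggcgcCGCTgtcgaccaa
PCDHGA9 (chr5:141402713-141402742): cttaggactctgagcgcCGCTgttgatcaa
PCDHGA10 (chr5:141412930-141412959): cttaggactctgagcgcCGCTgttcaccta
PCDHGB6 (chr5:141407923-141407952): acggagcctctgggcgcCGCTgtcggccag
PCDHGC3 (chr5:141475879-141475908): gctgggactctgtgtgcCGCTgtcggccaa
PCDHGC4 (chr5:141484951-141484980): tggctgagcccgggagcCGCTgtctgccaa

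The core CGCT stood on the gene strand in 44 of the 45 promoters (97.8%), against 54.3% of 35116 promoters, and on either strand in 44 of 45 against 70%. PCDHA9 was the member without it. Longer words around the core, chosen after these promoters had been read and each containing CGCT, were most frequent in 1 cluster each. GTCGCT was present in 11 of 13 alpha promoters (84.6%; 4.35% of all promoters, 7.97% on either strand). TGGCGCT was present in 13 of 13 beta promoters (2.21% and 4.08% of all). CGCTGT was present in 16 of 19 gamma promoters (84.2%; 5.95% and 11.2% of all), and GTCGCT and CGCTGT can overlap at the shared core. Outside their own clusters, GTCGCT stood in 6 of 19 gamma promoters and CGCTGT in 6 of 13 alpha promoters on the gene strand. PCDHGB7 was among the 3 gamma promoters without CGCTGT. Its closest 30-base match to the PCDHGB6 sequence shared 28 bases and differed by G3A and T21C, counted from the 5' end of the PCDHGB6 sequence. The differing bases are in capitals here.
PCDHGB7 (chr5:141417582-141417611): acAgagcctctgggcgccgcCgtcggccag

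The core lay a median of 55.0 bases before the RefSeq start in the alpha genes that had the cluster's word, 61.0 in the beta genes and 53.5 in the gamma genes. The number of CG dinucleotides in the 300-base window had a median of 6.0 in 10 alternate alpha genes (3 to 9), 8.0 in 13 beta genes (5 to 12) and 6.0 in 17 alternate gamma genes (2 to 16, the highest being PCDHGB6), among the members with the core. The C-type windows held 27 in PCDHAC1, 15 in PCDHAC2, 18 in PCDHGC3 and 23 in PCDHGC4, so that PCDHAC2 lay within the range of the alternate gamma genes. A match is a description of the letters, and binding was not measured. To place the core in a wider stretch, the 100 bases before the start are given for the most abundant alpha and gamma members and for the beta member with the smallest p between the lines.
PCDHA10 (chr5:140855797-140855896): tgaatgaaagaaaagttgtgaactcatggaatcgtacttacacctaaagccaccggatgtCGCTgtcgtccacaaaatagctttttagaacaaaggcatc
PCDHB16 (chr5:141182287-141182386): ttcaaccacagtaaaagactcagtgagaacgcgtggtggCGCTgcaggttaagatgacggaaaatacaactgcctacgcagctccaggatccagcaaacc
PCDHGC3 (chr5:141475866-141475965): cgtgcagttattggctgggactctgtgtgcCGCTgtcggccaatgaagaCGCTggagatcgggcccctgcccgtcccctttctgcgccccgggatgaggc

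Library totals ran from 77534125 to 99147218 counts. ZNF395 stood at 67.9 to 96.3 CPM, the count scaled to a common library size with TMM factors, in the controls and at 13.5 to 24.7 CPM in the knockdown libraries. The renal transcription factor PAX8 was present in all 6 libraries at 156.7 to 256.0 CPM. Summed endothelial markers reached 0.493 CPM in 786-O and 2.35 CPM in A-498, and summed immune markers 0.468 and 1.58 CPM. The carcinoma marker CA9 was at most 0.01 CPM in 786-O and 0.40 to 1.68 CPM in A-498, and the proximal tubule receptor LRP2 was at most 0.05 CPM in every library.

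The first comparison was between the lines, whatever the construct. Clustered protocadherins were higher in A-498 than in 786-O, with the widest gap in the alpha cluster, a smaller one in the beta cluster and the narrowest in the gamma cluster. Values are given in the order control, hairpin 1, hairpin 3. Summed over the alpha genes, the level was 0.0506, 0.0766 and 0.0267 CPM in 786-O against 23.6, 13.2 and 32.3 CPM in A-498. The beta sum was 7.75, 6.03 and 6.32 CPM in 786-O against 34.6, 24.5 and 37.4 CPM in A-498. The gamma sum was 41.3, 45.2 and 39.2 CPM against 57.7, 56.3 and 67.5 CPM. In each cluster the 3 A-498 libraries stood above the 3 786-O libraries without overlap. In bulk RNA, fewer cells that express a gene and less RNA per cell cannot be told apart. PCDHGC3 alone made up 81.4 to 84.8% of the gamma counts in 786-O and 67.0 to 72.4% in A-498. Without it, the gamma sum was 6.89 to 7.69 CPM in 786-O and 15.6 to 22.3 CPM in A-498.

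**Figure D1:**
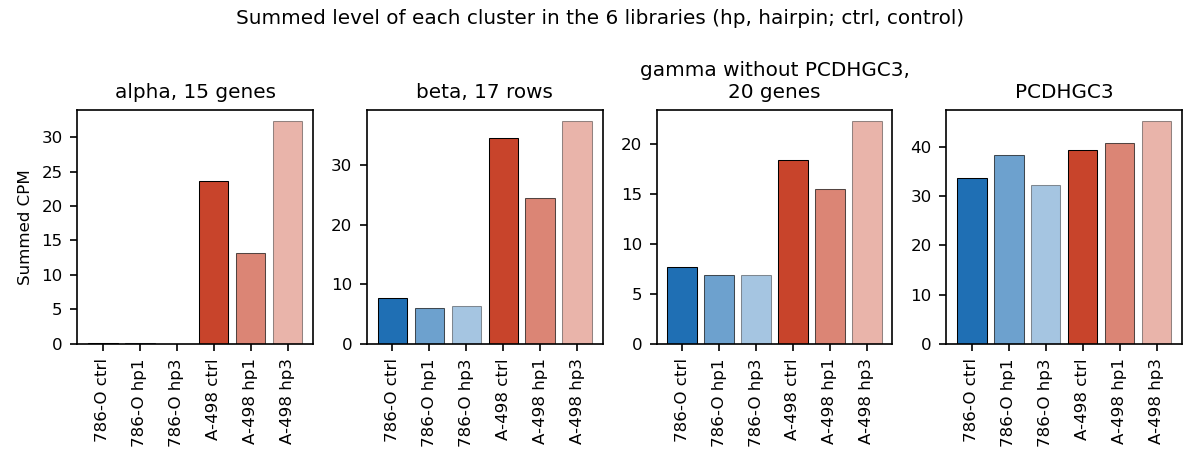
Summed CPM (vertical axes, each panel with its own scale from 0) of the alpha, beta and gamma clusters and of PCDHGC3 in the 6 libraries, 1 bar per library with no error bar. Alpha is near 0 in all 786-O libraries and 13.2 to 32.3 CPM in A-498, while PCDHGC3 is at a similar height in both lines.

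Over all 53 members, 40 (75.5%) had every A-498 library above every 786-O library, against 25.8% of all rows of the table. The order was the opposite in 4 members, PCDHB13, PCDHGA8, PCDHGA10 and PCDHGB7, against 20.1% of all rows. The remaining 9 overlapped. By cluster, A-498 was above in 14 of 15 alpha, 13 of 17 beta and 13 of 21 gamma members. Counts of at least 10 in all 3 libraries of a line were reached by 0 alpha, 8 beta and 11 gamma members in 786-O and by 8, 12 and 17 in A-498.

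**Figure D2:**
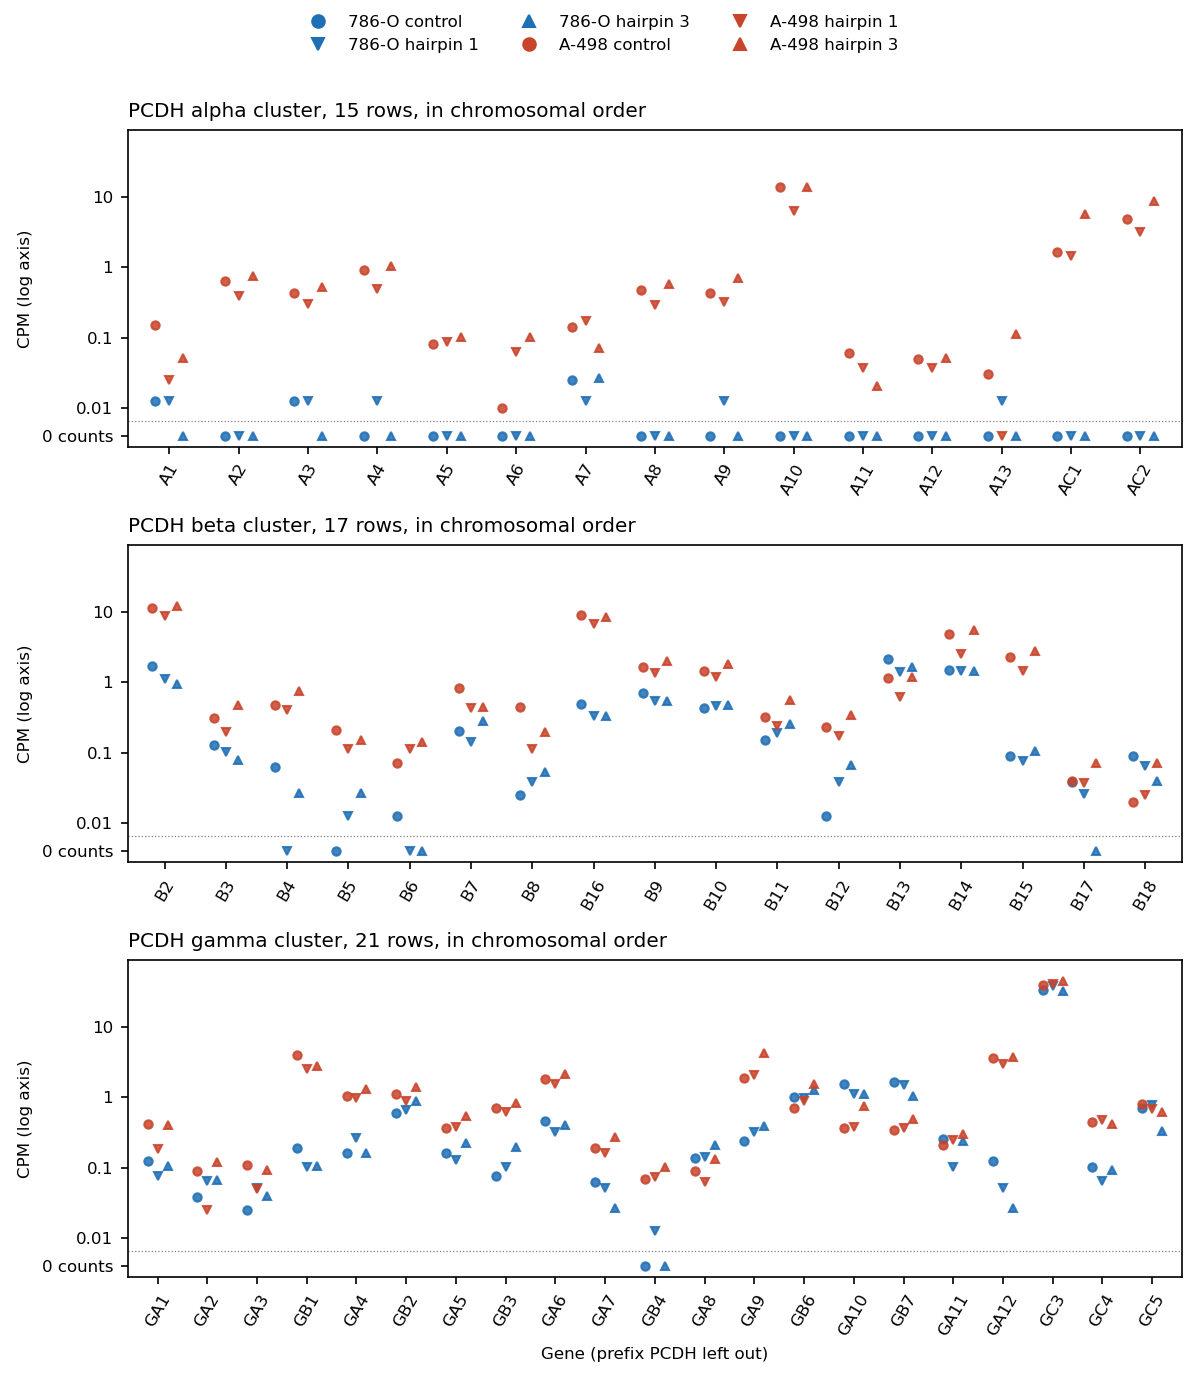
CPM on a log axis of each of the 53 members in chromosomal order, 1 point per library (blue for 786-O, red for A-498; circle for control, downward triangle for hairpin 1, upward triangle for hairpin 3; 0 counts below the dotted line). Red points lie above blue points in nearly all alpha columns, and the order turns at PCDHB13, PCDHGA8, PCDHGA10 and PCDHGB7.

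Of the 53 members, 41 passed edgeR's filter on low counts, 9 alpha, 14 beta and 18 gamma. Several of them, the 9 alpha genes included, passed through their A-498 level alone. PCDHB3, PCDHB4, PCDHB5, PCDHB8, PCDHB12, PCDHB15, PCDHGA1, PCDHGB1, PCDHGB3, PCDHGA7, PCDHGA12 and PCDHGC4 also needed their A-498 level to pass. Each had over 10 counts in at most 1 786-O library. The count of calls is therefore given beside the background only as a description. The test was edgeR's quasi-likelihood F test with line and knockdown status in the model and Benjamini-Hochberg adjustment over 20144 genes, with a call at an adjusted p under 0.05. It called 31 members higher and 2 lower in A-498, where 47.2% of all genes tested were called, 25.7% higher and 21.4% lower. The median log2 fold change was 8.26 over the alpha, 2.11 over the beta and 1.51 over the gamma members tested, against 0.02 over all genes. With the alpha genes that had no count in 786-O set at their bound (3 counts over the 786-O libraries), the alpha median was 6.42.

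The alpha genes were close to undetected in 786-O. No alpha gene had more than 2 counts in any 786-O library, and 9 of the 15 had 0 counts in all 3, which allows up to 3 counts over the line. PCDHA10, an alternate isoform, had 0 counts in each 786-O library and 1361, 510 and 1355 counts (13.6, 6.37 and 13.8 CPM) in those of A-498. It was at least 900.1-fold higher in A-498. The fitted log2 fold change of such a gene depends on the prior count, and its test gave an adjusted p of 0.000499 by edgeR. PCDHAC2, the C-type isoform known for the spacing of serotonergic axons, had 0 counts in 786-O and 482, 256 and 843 counts in A-498. This was at least 441.1-fold higher (adjusted p = 0.00109, edgeR). PCDHAC1, the other C-type alpha isoform, had 0 counts in 786-O and 166, 115 and 558 in A-498, at least 234.1-fold higher (adjusted p = 0.00297, edgeR). For these 3 genes every A-498 library stood far above the 786-O libraries.

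Other alternate alpha isoforms followed at lower levels. PCDHA2 was at 0 counts in 786-O and 0.632, 0.387 and 0.746 CPM in A-498, at least 46.6-fold higher. PCDHA4 had a single count in 786-O and 0.923, 0.487 and 1.03 CPM in A-498, a ratio of 194.2 with a 95% counting interval of 34.5 to 7703. PCDHA3 had 2 counts in 786-O against 119 in A-498 (ratio 49.8, interval 13.5 to 416.0) and PCDHA9 had 1 against 139 (116.3, 20.5 to 4628). All 9 alpha genes tested, which also include PCDHA7 and PCDHA8, were called. Each of them passed the filter through its A-498 counts alone, so this count is a description and no support for the difference. PCDHA1, PCDHA5, PCDHA6, PCDHA11, PCDHA12 and PCDHA13 did not pass the filter and had 11 to 25 counts over the A-498 libraries. PCDHA13, with 0 counts in the A-498 hairpin 1 library, was the alpha gene whose lines overlapped.

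Within A-498, PCDHA10 made up 57.9% of the alpha counts in the control (95% Wilson interval 55.9 to 59.9%), 48.2% with hairpin 1 (45.2 to 51.2%) and 42.9% with hairpin 3 (41.2 to 44.6%). PCDHAC1 made up 7.07% (6.10 to 8.18%), 10.9% (9.13 to 12.9%) and 17.7% (16.4 to 19.0%) in the same libraries. The intervals of the 3 libraries do not overlap for PCDHAC1, and they cover counting error only. As shares of a sum, these values move against each other.

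**Figure D3:**
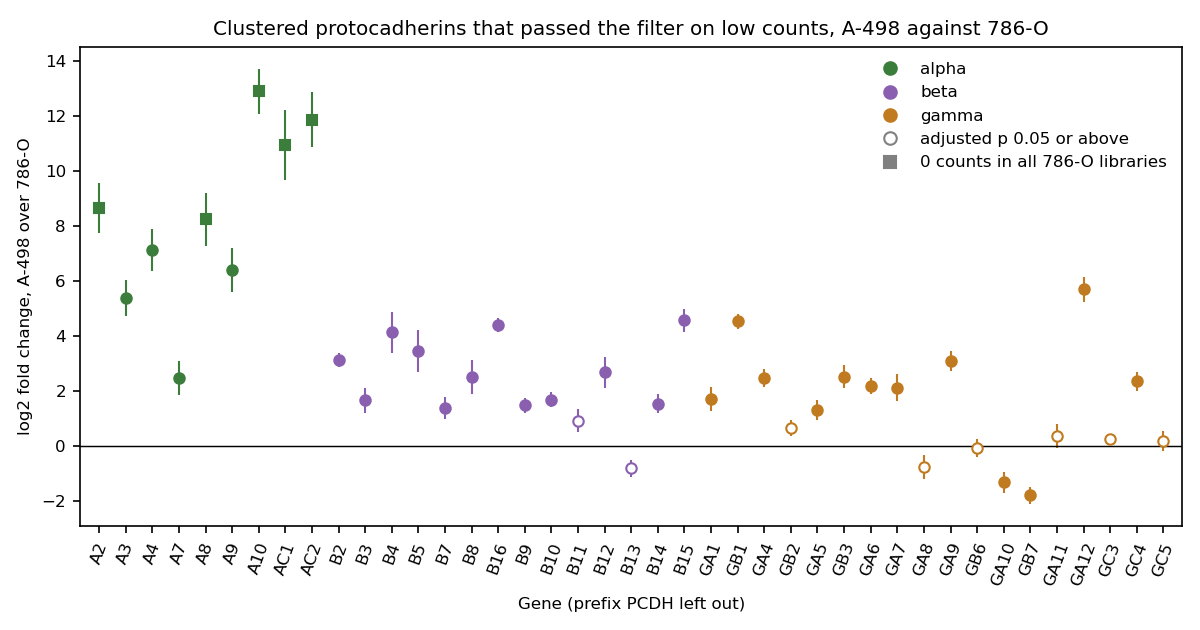
Fitted log2 fold change of A-498 over 786-O with its standard error (bars) for the 41 members that passed the filter, in chromosomal order and coloured by cluster. Open symbols had an adjusted p of 0.05 or above, and squares mark genes with 0 counts in 786-O, whose fitted value depends on the prior count. The alpha genes lie at the top and PCDHGA10 and PCDHGB7 at the bottom.

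In the beta cluster 12 of the 14 genes tested were called higher in A-498 and 0 lower. The calls of PCDHB3, PCDHB4, PCDHB5, PCDHB8, PCDHB12 and PCDHB15 are a description, as these genes needed their A-498 counts to pass the filter. PCDHB2 stood at 1.68, 1.11 and 0.959 CPM in 786-O and at 11.3, 8.70 and 12.2 CPM in A-498, without overlap. Its log2 fold change was 3.13 (SE 0.256, adjusted p = 0.000220, edgeR). PCDHB16, which stands between PCDHB8 and PCDHB9 on the chromosome, had 0.493, 0.332 and 0.333 CPM in 786-O against 9.0, 6.79 and 8.57 CPM in A-498. The difference was 4.41 on the log2 scale (SE 0.246, adjusted p = 6e-05, edgeR), the smallest p among the members. At the 3' end of the cluster PCDHB15 had 0.089, 0.077 and 0.107 CPM against 2.28, 1.46 and 2.83 CPM (4.58, SE 0.402, adjusted p = 0.000293, edgeR). In all 3 genes every A-498 library stood above every 786-O library.

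PCDHB13 went the other way. It stood at 2.15, 1.42 and 1.63 CPM in 786-O and at 1.14, 0.624 and 1.20 CPM in A-498, so that the lowest 786-O library was above the highest A-498 library. The log2 fold change was -0.80 (SE 0.309) and did not pass (adjusted p = 0.0737, edgeR). It passed with DESeq2 (adjusted p = 0.0470), with the hairpin as a block (0.0162) and without the A-498 hairpin 3 library (0.0240). The adjusted p ran up to 0.275 over the other alternatives. The fit with the hairpin as a block called 12460 of all 20144 genes, against 9501 in the main analysis. PCDHB13 made up 23.5 to 27.7% of the beta counts in 786-O and 2.55 to 3.31% in A-498, where PCDHB2 with 32.6 to 35.5% and PCDHB16 with 22.9 to 27.7% led. The neighbour PCDHB14 had 1.49, 1.47 and 1.44 CPM in 786-O and 4.79, 2.55 and 5.60 CPM in A-498 (1.55, SE 0.333, adjusted p = 0.00937, edgeR), a call lost without the 786-O control (adjusted p = 0.0603) or the A-498 control (0.0635). PCDHB11 was the other beta gene tested without a call (0.92, SE 0.420, adjusted p = 0.114, edgeR), and it passed with the hairpin as a block (0.0455) and without the A-498 hairpin 1 library (0.0361). PCDHB6 and the pseudogenes PCDHB17 and PCDHB18 did not pass the filter, with at most 30 counts over a line.

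In the gamma cluster 10 genes were called higher in A-498, 2 lower, and 6 of the 18 tested were not called. The calls of PCDHGA1, PCDHGB1, PCDHGB3, PCDHGA7, PCDHGA12 and PCDHGC4 are a description, as these genes needed their A-498 counts to pass the filter. PCDHGB1 had 0.190, 0.102 and 0.107 CPM in 786-O and 4.02, 2.50 and 2.76 CPM in A-498 (log2 fold change 4.54, SE 0.274, adjusted p = 7.26e-05, edgeR). PCDHGA12, the last alternate gamma isoform and a gene studied for promoter methylation in cancers, had 0.126, 0.051 and 0.027 CPM against 3.65, 2.95 and 3.78 CPM. Its difference of 5.71 (SE 0.446, adjusted p = 0.000186, edgeR) was above that of every other gamma and beta gene tested. PCDHGA9 had 0.240, 0.319 and 0.386 CPM against 1.86, 2.11 and 4.27 CPM (3.1, SE 0.361, adjusted p = 0.000864, edgeR). For each of these genes the lines did not overlap. PCDHGA6 was 2.20 higher on the log2 scale (SE 0.286, adjusted p = 0.00133, edgeR), and the other called genes lay between 1.32 for PCDHGA5 and 2.53 for PCDHGB3. The call of PCDHGA5 was lost without either control, the 786-O hairpin 1 or the A-498 hairpin 3 library (adjusted p 0.0695 to 0.103).

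PCDHGB7 and PCDHGA10, which are next to each other on the chromosome, were the members called lower in A-498. PCDHGB7 stood at 1.64, 1.49 and 1.04 CPM in 786-O and at 0.341, 0.362 and 0.501 CPM in A-498, which is -1.79 on the log2 scale (SE 0.321, adjusted p = 0.00474, edgeR). PCDHGA10 stood at 1.54, 1.11 and 1.11 CPM in 786-O and at 0.371, 0.374 and 0.766 CPM in A-498 (-1.31, SE 0.390, adjusted p = 0.0312, edgeR). Neither gene's lines overlapped. The call of PCDHGA10 held without the A-498 hairpin 3 library and was lost without any of the other 5 libraries (adjusted p 0.0574 to 0.192), while that of PCDHGB7 held in each case. Their neighbours PCDHGB6 (-0.08, SE 0.328, adjusted p = 0.865, edgeR) and PCDHGA11 (0.37, SE 0.440, adjusted p = 0.519, edgeR) were not called. Along the chromosome, members with a many-fold difference thus stood beside members with little or the opposite difference.

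The C-type gamma genes differed among themselves. PCDHGC3, the broadly expressed isoform that acts with AXIN1 in dendrite branching, stood at 33.6, 38.3 and 32.3 CPM in 786-O and at 39.3, 40.8 and 45.2 CPM in A-498. The libraries of A-498 were above those of 786-O by a small margin, and the log2 fold change of 0.26 (SE 0.140) did not pass (adjusted p = 0.165, edgeR). PCDHGC4, known for its part in interneuron survival, had 0.101, 0.064 and 0.093 CPM in 786-O and 0.451, 0.474 and 0.419 CPM in A-498 (2.36, SE 0.346, adjusted p = 0.00215, edgeR). PCDHGC5 had 0.708, 0.791 and 0.333 CPM against 0.792, 0.687 and 0.613 CPM, with overlap (0.19, SE 0.365, adjusted p = 0.696, edgeR). Of the 5 C-type isoforms, PCDHAC1, PCDHAC2 and PCDHGC4 were thus called higher in A-498. Each of them needed its A-498 counts to pass the filter, so these calls are a description.

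PCDHGB4 gives a direct reading on the shared exons. It had 0, 1 and 0 counts in the 786-O libraries, in which PCDHGC3 had 2658, 3001 and 2426. Reads from the exons that these genes share were therefore not added to PCDHGB4. No source used here gives the strand setting of the counting, and 20 members, among them PCDHA10, PCDHAC2, PCDHB2, PCDHB15, PCDHB16 and PCDHGB1, overlap an exon of an antisense gene in GENCODE v29. Their counts cannot be told apart from antisense reads if strand was ignored.

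Levels were ordered within each line as CPM per kilobase of exon that no other member shares in GENCODE v29. In 786-O PCDHGC3 came first with a mean of 10.7 (9.94 to 11.8 over the 3 libraries), followed by PCDHGB7 with 0.50 (0.373 to 0.590), PCDHB13 with 0.342 (0.280 to 0.425), PCDHB14 with 0.304 (0.298 to 0.309) and PCDHB2 with 0.303 (0.233 to 0.408). From PCDHGB7 on, neighbours in this order overlapped. In A-498 PCDHGC3 again came first with 12.8 (12.1 to 13.9), followed by PCDHB2 with 2.6 (2.11 to 2.95), PCDHB16 with 1.62 (1.36 to 1.80), PCDHAC2 with 1.61 (0.926 to 2.50), PCDHGA12 with 1.31 (1.12 to 1.44) and PCDHGB1 with 1.19 (0.963 to 1.55). PCDHB2 and PCDHB16 did not overlap, and the later neighbours did. The order after PCDHGC3 depended on the length used. Per kilobase of all exons, PCDHGB7 ranked 5 in 786-O, after PCDHB13, PCDHB14 and PCDHB2. In A-498 PCDHB14 ranked 4 by that measure and 9 per unshared kilobase. Across genes, the order of the levels per kilobase was partly shared by the lines (beta, 15 genes, Pearson r 0.758, Spearman rho 0.768; gamma, 21 genes, r 0.687, rho 0.577). These are descriptions across genes, which share libraries and are not independent replicates.

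Genes that act on or with clustered protocadherins were read as lists, described by counts beside the 47.2% called among all genes. Among 25 regulators of the locus, 3 were called higher in A-498 and 6 lower (median log2 fold change -0.18). The DNA methyltransferase DNMT3B was higher (1.52, SE 0.220, adjusted p = 0.00204, edgeR), with 22.6 to 27.5 CPM in 786-O and 50.5 to 101.2 CPM in A-498. DNMT3A was also higher (1.47, SE 0.255, adjusted p = 0.00411, edgeR). The cohesin subunit RAD21 was lower (-0.92, SE 0.163, adjusted p = 0.00449, edgeR), with 368.5 to 468.9 CPM in 786-O and 196.1 to 248.0 CPM in A-498, and so was EZH2, the methyltransferase of Polycomb complex PRC2 (-0.89, SE 0.179, adjusted p = 0.00727, edgeR). CTCF, which binds the promoters, was at 60.2 to 89.7 CPM in 786-O and 55.4 to 72.2 CPM in A-498, with overlap (-0.18, SE 0.198, adjusted p = 0.476, edgeR). The part of these genes in the protocadherin difference was not tested.

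Protocadherins outside the clusters were read in the same way, together with the FAT and Dachsous cadherins. Of 14 tested, 12 were called higher in A-498 and 1 lower (median 2.58). PCDH1, which lies downstream of the gamma cluster on chromosome 5, had 0.10, 0.11 and 0.12 CPM in 786-O and 32.1, 30.4 and 62.0 CPM in A-498 (8.51, SE 0.401, adjusted p = 4.43e-05, edgeR). PCDH18 (3.77), DCHS2 (5.76) and FAT1 (2.26) were among the others called higher, and DCHS1 was the gene called lower (-1.70, SE 0.318, adjusted p = 0.00549, edgeR). A higher level in A-498 was thus also measured in relatives that lie outside the clusters.

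Other genes near the clusters gave a mixed picture. Of the 14 neighbours tested, which count PCDH1 and PCDH12 again, 4 were called higher and 2 lower (median 0.03). DIAPH1, a formin gene just past the gamma cluster, was lower in A-498 (-0.97, SE 0.184, adjusted p = 0.00588, edgeR) and ARAP3 was higher (0.99, SE 0.167, adjusted p = 0.00367, edgeR). TAF7, a single-exon gene between the beta and gamma clusters, was at 125.2 to 127.6 CPM in 786-O and 113.1 to 114.2 CPM in A-498. The pseudogene list, which holds PCDHB17 and PCDHB18 too, had 4 rows, of which PCDHGB8P was tested and called higher in A-498 (2.10, SE 0.517, adjusted p = 0.0155, edgeR).

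Among 22 tested genes of proteins that bind or process protocadherins, 1 was called higher in A-498 and 7 lower (median -0.13). The kinase PTK2B, which binds the shared cytoplasmic end, was higher (3.16, SE 0.270, adjusted p = 0.000265, edgeR). The WAVE complex genes WASF1 (-2.56, SE 0.189, adjusted p = 0.000147, edgeR), WASF2 (-1.40, SE 0.236, adjusted p = 0.00364, edgeR) and BRK1 (-1.17, SE 0.196, adjusted p = 0.00365, edgeR) were lower. PTK2 was at 217.0 to 236.5 CPM in 786-O and 202.8 to 245.6 CPM in A-498, with overlap.

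Since clustered protocadherins are best known from neurons, neuronal markers were set beside them. Their summed level was 220.9 to 281.4 CPM in 786-O and 475.2 to 569.4 CPM in A-498. Of 8 tested, 5 were called higher in A-498 and 1 lower, led by the microtubule protein MAP2 (4.56, SE 0.194, adjusted p = 3.46e-05, edgeR) and the neurofilament NEFM (6.53, SE 0.590, adjusted p = 0.000327, edgeR). The synaptic vesicle protein SYN1 was at most 0.06 CPM and ELAVL3 at most 0.12 CPM in every library, and the presynaptic SNAP25 was at 8.14 to 11.7 CPM in 786-O and 3.73 to 8.49 CPM in A-498. The list of HEK293-associated genes summed to 200.1 to 261.1 CPM in 786-O and 372.7 to 444.4 CPM in A-498, almost all of it the neurofilament NEFL, which the neuronal list also holds, while LIN28B was at most 0.01 CPM. Of 3 tested, all were called higher in A-498. The renal and carcinoma list had 3 of 13 called higher and 6 lower, the endothelial list 1 higher and 1 lower of 2, and the immune list 1 higher of 2. The part of these markers in the protocadherin difference was not tested.

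The study's own question was which genes change with ZNF395 knockdown, and there the clustered protocadherins gave few calls. With both hairpins pooled, 0 of the 41 members passed edgeR's quasi-likelihood test, as did 0% of all genes tested. A single member (2.44%), PCDHGB1, had an unadjusted p under 0.05, where 5.03% of all genes had one (log2 fold change -0.70, SE 0.258, adjusted p = 0.939, edgeR). DESeq2, limma-voom and the fit with the hairpin as a block called 0 members, where they called 92, 1 and 26 of all 20144 genes. Values of the next members by p were 0.68 for PCDHGA9 (SE 0.374), -0.93 for PCDHB8 (SE 0.571) and -0.37 for PCDHB16 (SE 0.232). In the authors' deposited table, which sets control over knockdown, 24 members had an adjusted p-value and none of those was under 0.05, with the smallest at 0.76 for PCDHGB1. Among all 32357 rows of that table only 85 were under 0.05, so the absence of members is little information about them.

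Hairpin 1 against the control gave 0 called members by edgeR, where 0.149% of all genes were called, with 4 (9.76%) at an unadjusted p under 0.05, near the 10.5% of all genes. DESeq2 and limma-voom also called 0 members, where they called 466 and 37 of all 20144 genes. Fitted values were below 0 for 36 of the 41 members, including 14 of 14 beta genes, and for 10199 of all 20144 genes. The median was -0.36 against -0.00406 over all genes. In 786-O alone, 6 of 8 beta genes with a mean of at least 10 counts were below the control and 2 above, PCDHB10 and PCDHB11. PCDHA10 had the smallest p (-1.10, SE 0.292, adjusted p = 0.321, edgeR), a value that comes from 6.37 CPM with hairpin 1 and 13.6 CPM in the A-498 control. PCDHGB1 (-0.74, SE 0.272), PCDHB13 (-0.72, SE 0.278) and PCDHGA1 (-1.01, SE 0.411) came next. PCDHGB1 and PCDHB13 were lower with hairpin 1 than in the control in both lines. Without the 786-O hairpin 3 library, PCDHA10 passed (adjusted p = 0.0476, edgeR), and its adjusted p lay between that and 1.00 over the other alternatives.

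Hairpin 3 against the same controls also gave 0 called members by edgeR, where 6.71% of all genes were called. At an unadjusted p under 0.05 there were 3 members (7.32%), below the 25.8% of all genes. DESeq2 and limma-voom each called 1, PCDHAC1, where they called 2589 and 1635 of all 20144 genes. Fitted values were above 0 for 27 of 41 members and 9892 of all 20144 genes, with a median of 0.20 against -0.00955 over all genes. PCDHAC1 was at 1.66 CPM in the A-498 control and 5.70 CPM with hairpin 3 (1.76, SE 0.378, adjusted p = 0.0654, edgeR). PCDHGA9 (1.01, SE 0.287, adjusted p = 0.0831, edgeR) was at 0.240 and 0.386 CPM in 786-O and at 1.86 and 4.27 CPM in A-498, higher with hairpin 3 in both lines. PCDHGB6 (0.73, SE 0.297) and PCDHAC2 (0.83, SE 0.334) came next. PCDHAC1 passed without the 786-O hairpin 3 library (adjusted p = 0.0104, edgeR) and without the A-498 hairpin 1 library (0.0351), and PCDHGA9 passed without the former (0.0201). Over all alternatives the adjusted p of PCDHAC1 ran from 0.00593 to 1.00.

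**Figure D4:**
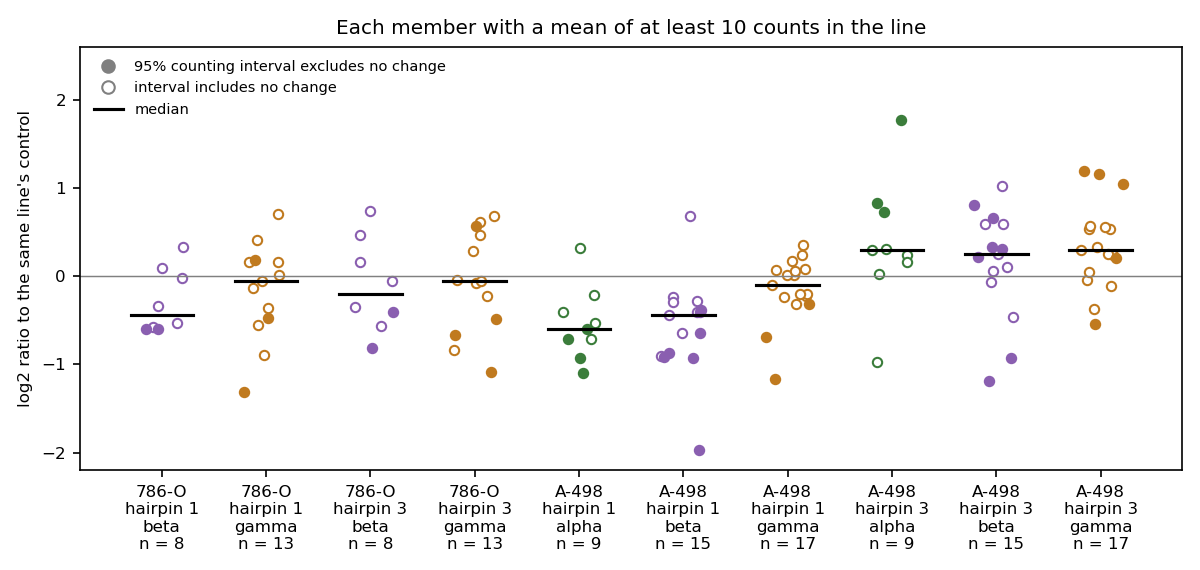
The log2 ratio of each knockdown library to its line's control (vertical axis) for members with a mean of at least 10 counts in the line, by line, hairpin and cluster, with the median as a bar. Filled points have a 95% counting interval that excludes no change. In A-498 most alpha and beta points lie below 0 with hairpin 1 and above 0 with hairpin 3. The 2 hairpins are set against the same control library.

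Within A-498, 31 of the 41 members with a mean of at least 10 counts were lower with hairpin 1 than in the control, where 51.2% of all genes with such counts were lower. Of the 41, 14 (34.1%) were lower beyond the 95% counting interval, near the 29.3% of all genes, and 0 were higher beyond it, against 27.8%. With hairpin 3, 32 of 41 were higher than in that control while 51.0% of all genes were lower. Beyond the interval 12 (29.3%) were higher, near the 31.1% of all genes, and 3 (7.32%) were lower, against 34.6%. Both hairpins are compared with the same control library, so these counts are not independent. In 786-O 13 of 21 members (61.9%) were lower with hairpin 1 and 13 of 21 with hairpin 3, against 49.6% and 49.3% of all genes. The largest ratios in A-498 belonged to PCDHAC1, at 342.4% of the control with hairpin 3 (interval 287.4 to 409.7%), and PCDHGA9 at 228.9% (192.1 to 273.6%), while PCDHB8 was lowest with hairpin 1 at 25.5% (10.9 to 52.8%). The intervals cover counting error only and say nothing about the spread between cultures.

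The contrast of hairpin 3 with hairpin 1 holds no control value, but the control libraries enter the scaling, the filter and the spread of the model. PCDHAC1 was called higher with hairpin 3 (1.98, SE 0.384, adjusted p = 0.0459, edgeR), where 9.48% of all genes were called. The call rests on 1 library each of hairpin 3 (5.70 CPM) and hairpin 1 (1.44 CPM) in A-498, since PCDHAC1 was at 0 counts in 786-O. It was lost without the 786-O hairpin 1 library (adjusted p = 0.0952), and without either of these A-498 libraries there is no contrast left in A-498. PCDHAC2 (1.42, SE 0.341, adjusted p = 0.0710, edgeR), PCDHA10 (1.12, SE 0.293, adjusted p = 0.0851, edgeR) and PCDHB15 (0.86, SE 0.304, adjusted p = 0.126, edgeR) came next and did not pass. DESeq2 called 2 members and limma-voom 3, where they called 2990 and 2312 of all 20144 genes. Fitted values were above 0 for 36 of 41 members and 9929 of all 20144 genes, with a median of 0.60 against -0.00835 over all genes.

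The ratio of the hairpins was also read within each line. In A-498 38 of 41 members had a ratio of hairpin 3 to hairpin 1 above 1 (92.7%, against 49.3% of all genes with such counts), 27 of them with a 95% counting interval above 1 (65.9%, against 32.3%), and the median ratio was 1.70 against 0.994. It was 2.12 over 9 alpha, 1.73 over 15 beta and 1.38 over 17 gamma genes. PCDHA2, PCDHA3, PCDHA4, PCDHA8, PCDHA9 and PCDHA10 had ratios between 1.77 and 2.20, while PCDHAC2 had 2.69 (2.34 to 3.11) and PCDHAC1 3.97 (3.24 to 4.90). PCDHA7 was the alpha gene with a ratio below 1, at 0.409 (0.140 to 1.08). In 786-O 13 of 21 members had a ratio above 1 (61.9%, against 50.3% of all genes), with a median of 1.04. There 0 intervals lay above 1 (34.0% of all genes) and 3 below (14.3%, against 33.4%). The 3 were PCDHGC5 (0.421, interval 0.253 to 0.680), PCDHGB7 (0.696, 0.516 to 0.935) and PCDHGC3 (0.844, 0.799 to 0.891). Whether the lines differ in this ratio was not tested, as each line has 1 library of each hairpin.

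The difference between lines in the effect of knockdown was tested with both hairpins pooled. It gave 0 called members and 0 with an unadjusted p under 0.05 by edgeR (0.789% of all genes), and 0 calls by DESeq2 and limma-voom, where 0% of all genes were called. The members of smallest p were PCDHB5 (-4.49, SE 2.17), PCDHB8 (-2.32, SE 1.20), PCDHGA12 (1.54, SE 0.822) and PCDHB4 (2.44, SE 1.52), each at an adjusted p of 1.00 and each with at most 10 counts in any 786-O library. In A-498 PCDHB8 had 0.441, 0.112 and 0.194 CPM, and in 786-O 0.025, 0.038 and 0.053 CPM. Those 786-O values are 2 to 4 counts, so a difference in direction was not detectable at this depth. Members with 0 counts in all 786-O libraries could not be called at all, with an SE of 1061 for PCDHA10 and 2293 for PCDHAC1. Their lack of a call is no result about them.

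By edgeR none of the other lists gave a call with hairpin 1 against the control. With hairpin 3 against the control 3 partners, FAT2 and EPAS1 were called, where 6.71% of all genes were. Between the hairpins 9.48% of all genes were called. There the partners had 1 higher with hairpin 3 and 4 lower of 22, and the protocadherins outside the clusters 2 higher and 1 lower of 14. The renal and carcinoma list had 4 higher of 13, and the neighbours (PCDH1 again) and neuronal genes 1 higher each, of 14 and 8. None of the 25 regulators was called with hairpin 1, with hairpin 3 or between the hairpins by edgeR, with 1, 8 and 8 at an unadjusted p under 0.05. Of all genes, 10.5%, 25.8% and 28% had such a p in these comparisons. FAT2 was lower with hairpin 3 (-1.21, SE 0.215, adjusted p = 0.0271, edgeR). Between the hairpins PCDH1 (0.89, SE 0.217, adjusted p = 0.0498, edgeR) and FAT4 (0.81, SE 0.189, adjusted p = 0.0447, edgeR) were higher with hairpin 3 and FAT2 was lower (-1.09, SE 0.215, adjusted p = 0.0300, edgeR). Among the partners, WASF3, ABI1 and NLGN2 were lower with hairpin 3 than in the control, and between the hairpins WASF2 was higher with hairpin 3 and WASF3, ABI1, ABI2 and NLGN2 were lower. EPAS1, which encodes the HIF subunit stabilised in VHL-deficient cells, was higher with hairpin 3 than in the control (0.78, SE 0.131, adjusted p = 0.0237, edgeR) and than with hairpin 1 (1.24, SE 0.132, adjusted p = 0.00899, edgeR). Its part in the protocadherin values was not tested.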

How the data were processed

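Clustered protocadherins were read from 1 table of 6 libraries of 786-O and A-498. The authors deposited whole-number read counts per gene symbol without normalization, together with a log2 fold change and a p-value with its adjusted p-value from their own DESeq2 run, per the file headers. The submitters' processing notes name STAR and DESeq2 as tools and hg19 and hs37d5 as builds. Which counter, annotation and strand setting were used is not stated in the sources at hand.

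Tests used edgeR 4.0.16 under R 4.3.3 (TMM scaling, filterByExpr, quasi-likelihood F test, Benjamini-Hochberg adjustment over 20144 genes). The models were line plus knockdown status with 3 residual degrees of freedom, line plus construct with 2, and 4 means with 2. In the model with construct the lines serve as replicates. Each standard error was taken from its F statistic. Ratios of counts have exact 95% intervals, shares have Wilson intervals, and both cover counting error only; a count of 0 allows 3 counts. The medians of log2 ratios within a line used 0.5 added to each count.

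Alternatives were RLE size factors, no filter, DESeq2 1.42.0, limma-voom (limma 3.58.1), the hairpin as a block, and each library left out. The tests were tried on simulated counts. Members and the 10 gene lists were chosen with earlier results of these data known. Named members are the 4 most abundant of each cluster, the called members (12 at most per comparison), otherwise the 4 of smallest p, and the C-type genes. Others that are named, such as PCDHGB7, PCDHGA10 and PCDHGB4, were chosen after their values were seen. Promoter sequences are RefSeq's in GRCh38.p14, and no coordinate of the hg19 counting was used. No label gives a batch or date.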

Additional observations from a re-analysis of the deposited data

How the results depend on the processing

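The comparison of the lines called 33 members in the main analysis, 33 with RLE size factors and with limma-voom, and 34 with DESeq2. It called 39 of 53 without the filter, and 23 to 32 with 1 library left out. Of all 20144 genes tested, 9501 were called in the main analysis, 9482 with RLE, 9632 with limma-voom and 9909 with DESeq2. Without the filter 10074 of 32357 were called, and with 1 library left out from 5581 of 21237 to 8587 of 19786. The 12 members that the naming rule gives for that comparison are its called members of smallest p. They kept direction and call in 132 of 132 alternatives, but were picked by that p in the same libraries. Other members, PCDHGA10, PCDHGA5 and PCDHB14 among them, lost their call in some. The pooled knockdown comparison and the difference between lines gave 0 calls under every alternative run; the latter could not be fitted without a control library. The hairpin block (line and construct) gave 36 calls between the lines, adding PCDHB11 and PCDHGB2 higher and PCDHB13 lower in A-498. It called 12460 of all 20144 genes between the lines, against 9501 in the main analysis. With pooled knockdown the block called 0 members, where it called 26 of all 20144 genes. Without the filter, 2654 of all 32357 genes were called with hairpin 3 against control and 3117 with hairpin 3 against hairpin 1. Hairpin 1 against control gave 0 to 1 calls with 1 library left out. The call was PCDHA10 without the 786-O hairpin 3 library. Hairpin 3 against control gave 2 calls without the filter, 1 with DESeq2, 1 with limma-voom and 0 to 2 with 1 library left out. Hairpin 3 against hairpin 1 gave 3 calls without the filter, 2 with DESeq2, 3 with limma-voom and 0 to 4 with 1 library left out: 4 without 786-O hairpin 3, and 0 without 786-O hairpin 1, A-498 hairpin 1 or A-498 hairpin 3. For PCDHAC1 in that comparison the adjusted p ran from 0.00245 to 1.00 over the alternatives. With 1 library left out, direction turned for PCDHB8 with pooled knockdown (-1.49 to 0.79, positive without the A-498 control), for PCDHA10 with hairpin 1 (-1.10 to 0.0094, positive without A-498 hairpin 1), and for PCDHAC1 (-0.10 to 1.80) and PCDHAC2 (-0.26 to 0.86) with hairpin 3, negative without A-498 hairpin 3. These genes are near 0 or low in 786-O, so leaving out that library removes the contrast itself. Depth limits the alpha genes in 786-O, where no gene exceeds 2 counts. No paired analysis beyond this block was possible because each line and construct has 1 library.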
